A study of Homo sapiens with 6 samples.

Results

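miR-1306 is a microRNA (miRNA) whose hairpin lies inside the messenger RNA of DGCR8, and its 2 mature arms, miR-1306-5p and miR-1306-3p, are described here. Both were taken by name from the 1000 mature miRNAs that were counted, with earlier results of these data known. The libraries came from HEK 293T, an immortalized human embryonic kidney cell line, either wild type (WT, 3 libraries) or with TENT3A and TENT3B, also called TUT4 and TUT7, knocked out together (ΔTUT4/7, 3 libraries). The cells received no treatment, and the 3 libraries of each strain carry the label of biological replicates. The ΔTUT4/7 cells are 1 strain that was given by another laboratory, and the sources used here do not say whether it grew from a single clone. Any difference between the strains can therefore not be told apart from other differences between these cell populations. Mature miRNAs alone were counted in these libraries. The study also sequenced messenger RNA of both strains, which was not used. The loss of TUT4 and TUT7, and the level of the DGCR8 messenger RNA or protein, were not analysed here.

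DGCR8 binds the double-stranded stem of primary miRNA transcripts and, with the nuclease Drosha, forms the Microprocessor, which cuts hairpins out of them. Hairpins near the start of the DGCR8 messenger RNA are themselves cut by the Microprocessor, a loop through which the complex is known to lower the amount of its own subunit. The cut releases a precursor hairpin that Dicer then trims to a duplex of a 5p and a 3p strand, 1 of which is usually kept by an Argonaute protein. TUT4 and TUT7 add uridines to the 3′ ends of precursor and mature miRNAs. A long uridine tail marks precursors such as those of let-7 for decay, whereas a single uridine completes the short 3′ overhang of the precursors known as group II, so that Dicer can use them. The study took its group II list from MirGeneDB, and mir-1306 is on that list. The comparison of ΔTUT4/7 with WT libraries asks how the 2 arms of this hairpin stand when both enzymes are missing.

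The mature sequences from RefSeq, read 5′ to 3′ on the plus strand of chromosome 22, are shown for their seeds, GC content and length. The capitals mark the seed, bases 2 to 8, through which a miRNA mainly pairs with its targets. miR-3618, from the other hairpin of the same exon, is set beside them.

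hsa-miR-1306-5p: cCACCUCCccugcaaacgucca

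hsa-miR-1306-3p: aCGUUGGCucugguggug

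hsa-miR-3618: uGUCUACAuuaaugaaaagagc

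In the GRCh38 (hg38) genome, miR-1306-5p is at chr22:20086072-20086093, miR-1306-3p at chr22:20086112-20086129 and miR-3618 at chr22:20085797-20085818. The mir-1306 hairpin spans 85 bases, chr22:20086058-20086142. It lies wholly in coding sequence, in exon 2 of the 14 exons of the canonical DGCR8 transcript, and starts 94 bases after the first coding base. The mir-3618 hairpin, 88 bases long, lies in the same exon but in its untranslated part, and ends 131 bases before the coding sequence begins. The hairpins are 224 bases apart. The arms of miR-1306 are both rich in G and C, at 63.6% of 22 nt for miR-1306-5p and 61.1% of 18 nt for miR-1306-3p, against 31.8% for miR-3618.

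The seeds of the 2 arms are found in no other of the 2370 mature human miRNAs in RefSeq. The study trimmed reads to 18 nt before alignment, which for miR-1306-3p is the whole molecule. No other mature miRNA shares the first 18 bases of either arm, and these bases match the genome once each, at the arm's own position. Exact reads of the 2 arms thus had no second listed miRNA to be divided with.

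**Figure D1:**
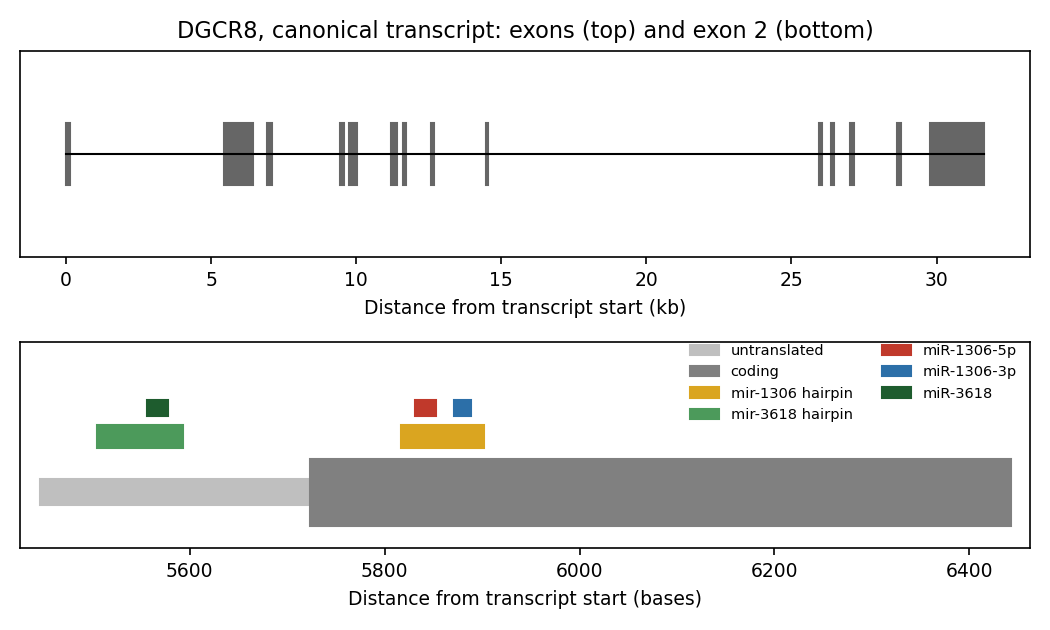
Exons of the canonical DGCR8 transcript against distance from the transcript start in kb (top), and its exon 2 in bases (bottom) with the coding and untranslated parts, the mir-1306 and mir-3618 hairpins and their mature arms drawn to scale. The mir-1306 hairpin starts 5817 bases from the transcript start, inside the coding part, and the mir-3618 hairpin lies before it in the untranslated part.

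The 6 libraries held between 4338558 and 7967606 counts in total. Values are given as CPM, the count scaled to 1000000 counts in the library. Of the 1000 miRNAs, 826 had a highest count above 7 and were tested, both arms of miR-1306 and miR-3618 among them. A miRNA is called here when its adjusted p is under 0.05 and it differs at least 2-fold between the strains. By this rule 136 were higher (16.5% of those tested) and 112 were lower (13.6%) in ΔTUT4/7 cells, together 30.0%, by edgeR with Benjamini-Hochberg adjustment. With library totals free of let-7 and miR-98, the split was 183 higher and 81 lower.

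miR-1306-5p, the more abundant arm, showed no detectable difference between the strains, and its ΔTUT4/7 libraries were spread widely. Its level was 37.2, 62.4 and 125.0 CPM in the ΔTUT4/7 libraries 1, 2 and 3, from 189, 300 and 586 counts. In the WT libraries it was 73.0, 100.8 and 57.2 CPM, from 322, 803 and 248 counts. The strains overlapped fully, since the lowest and the highest of the 6 libraries were both ΔTUT4/7, and the arm held rank 182 to 265 by abundance in its libraries.

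The mean of miR-1306-5p was 74.9 ± 45.2 CPM (SD, n = 3) in ΔTUT4/7 cells and 77.0 ± 22.1 CPM (SD, n = 3) in WT cells. Its log2 fold change, ΔTUT4/7 over WT, was −0.05 (SE 0.36, adjusted p = 0.93 by edgeR with Benjamini-Hochberg adjustment). The 95% confidence interval ran from −0.83 to 0.74, that is from 0.562-fold to 1.67-fold, so a change of either direction within these limits could not be seen. The exact two-sided permutation test of the mean CPM gave p = 1, and 3 libraries against 3 cannot give a p below 0.1. The sign of this small value depended on single libraries: it was 0.28 without ΔTUT4/7 library 1, 0.07 without ΔTUT4/7 library 2, 0.20 without WT library 2 and −0.63 without ΔTUT4/7 library 3, and none of these passed the test.

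miR-1306-3p, the scarcer arm, was lower in the ΔTUT4/7 libraries. It stood at 5.72, 5.82 and 5.76 CPM in the ΔTUT4/7 libraries 1, 2 and 3, from 29, 28 and 27 counts. In the WT libraries it was 12.9, 9.92 and 8.07 CPM, from 57, 79 and 35 counts. Every ΔTUT4/7 library was below every WT library, a pattern shared by 29.5% of the tested miRNAs in this direction. The 3 ΔTUT4/7 values lie closer together than their counting error: the exact Poisson 95% interval of ΔTUT4/7 library 1 alone ran from 3.83 to 8.21 CPM. Reads copied by PCR are not independent molecules, and all intervals on counts given here cover counting error only.

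The mean of miR-1306-3p was 5.77 ± 0.0534 CPM (SD, n = 3) in ΔTUT4/7 cells against 10.3 ± 2.45 CPM (SD, n = 3) in WT cells, 1.79-fold lower by the ratio of means. The log2 fold change was −0.83 (SE 0.26, 95% confidence interval −1.40 to −0.26, adjusted p = 0.021 by edgeR with Benjamini-Hochberg adjustment). The arm thus fell by the test but stayed short of the 2-fold limit, as part of the 21.9% of tested miRNAs that were lower at an adjusted p under 0.05 regardless of size. The exact two-sided permutation test of the mean CPM gave p = 0.1, the smallest it can give.

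The adjusted p of miR-1306-3p was near its threshold. By edgeR its adjusted p was 0.0558 without ΔTUT4/7 library 1, 0.0653 without ΔTUT4/7 library 2 and 0.0827 without WT library 1, with log2 fold changes of −0.83, −0.84 and −0.65. Scaling by totals free of let-7 and miR-98 moved the median change over the tested miRNAs up by 0.22 (log2), and miR-1306-3p then stood at −0.61 (adjusted p = 0.0717, edgeR). Measured against the median of all tested miRNAs, the arm was at −0.85 with the full totals and −0.84 with the reduced ones, and miR-1306-5p was at −0.06 with both.

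**Figure D2:**
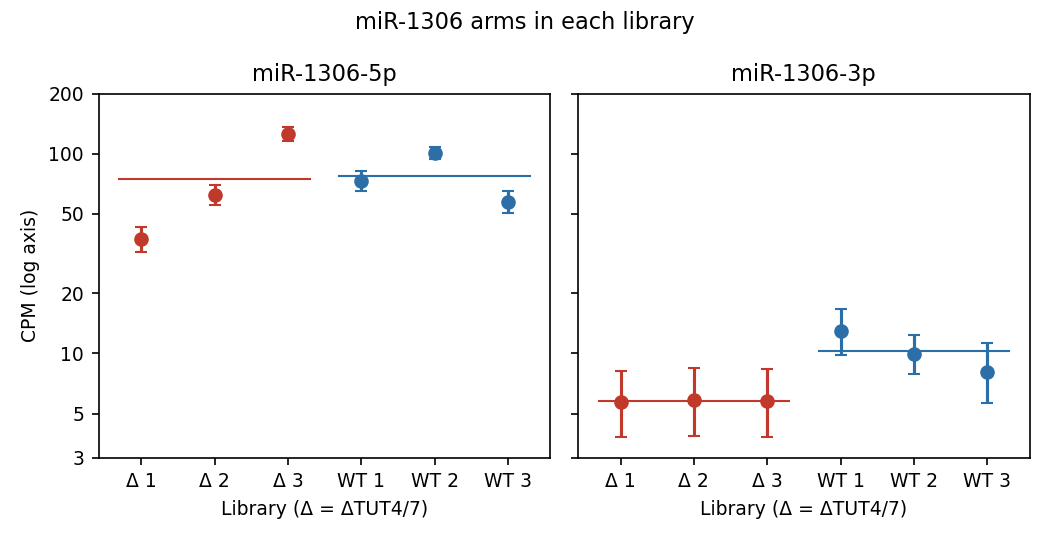
CPM (log axis) of miR-1306-5p (left) and miR-1306-3p (right) in the 3 ΔTUT4/7 (Δ, red) and 3 WT (blue) libraries, with exact Poisson 95% intervals as error bars and the strain mean as a line. The ΔTUT4/7 libraries hold both the lowest and the highest value of miR-1306-5p, 37.2 and 125.0 CPM, while all 3 stand below the WT libraries for miR-1306-3p.

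Summed over both arms, the hairpin gave 80.6 ± 45.2 CPM (SD, n = 3) in ΔTUT4/7 cells and 87.3 ± 22.8 CPM (SD, n = 3) in WT cells. With the arms entered as 1 feature, the log2 fold change was −0.12 (SE 0.34, adjusted p = 0.792 by edgeR with Benjamini-Hochberg adjustment), and the exact permutation p was 0.9. The sum follows miR-1306-5p, which supplied most of its counts. Its sign also turned, to 0.18 without ΔTUT4/7 library 1, 0.09 without WT library 2 and 0.10 with totals free of let-7 and miR-98.

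**Figure D3:**
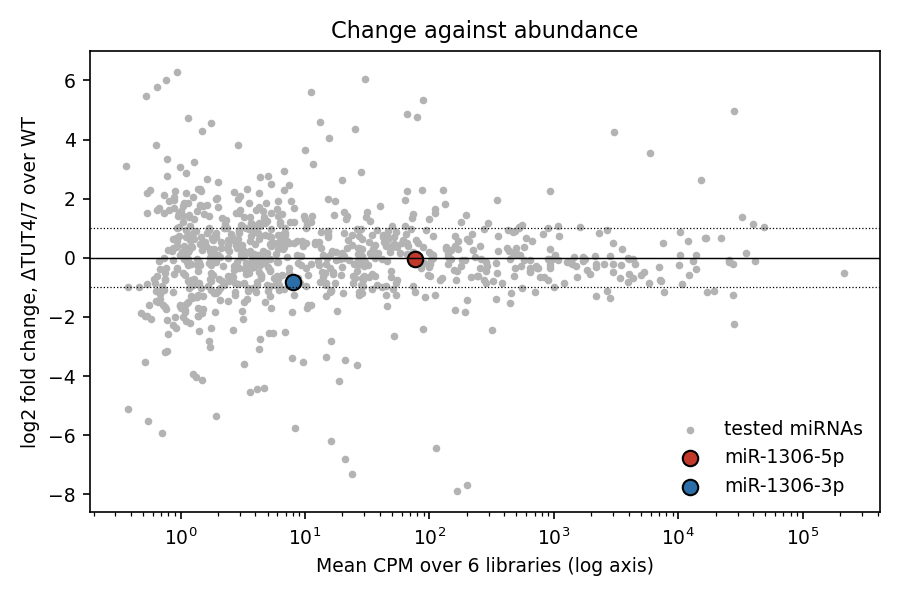
log2 fold change, ΔTUT4/7 over WT, of the 826 tested miRNAs against their mean CPM over 6 libraries (log axis), with dotted lines at the 2-fold limit. miR-1306-5p (red) lies at −0.05 and miR-1306-3p (blue) at −0.83, both inside the dotted lines.

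The balance of the arms does not depend on the library total, because both are counted in the same library. miR-1306-5p made up 86.7%, 91.5% and 95.6% of the miR-1306 counts in the ΔTUT4/7 libraries 1, 2 and 3, and 85.0%, 91.0% and 87.6% in the WT libraries. The 5p arm thus dominated in all 6 libraries, and the strains overlapped. The Wilson 95% interval of ΔTUT4/7 library 3, from 93.7% to 97.0% of 613 counts, lies above those of the WT libraries, the highest of which ends at 92.8%. That of ΔTUT4/7 library 1, from 81.5% to 90.6% of 218 counts, does not.

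The mean share of the 5p arm was 91.3 ± 4.45% (SD, n = 3) in ΔTUT4/7 cells and 87.9 ± 3.05% (SD, n = 3) in WT cells. The difference of 3.37 percentage points gave an exact permutation p of 0.4, and was 5.65 without ΔTUT4/7 library 1, 1.20 without ΔTUT4/7 library 3 and 1.91 without WT library 1. As a ratio, there were 6.52, 10.7 and 21.7 counts of miR-1306-5p for each count of miR-1306-3p in the ΔTUT4/7 libraries, and 5.65, 10.2 and 7.09 in the WT libraries.

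This ratio was tested together with those of all hairpins whose 5p and 3p arms had exactly matching names and were both tested, 200 in number. Hairpins with differently numbered arms were left out. For miR-1306 it differed by 0.64 on the log2 scale, higher in ΔTUT4/7 (SE 0.40, 95% confidence interval −0.23 to 1.50, adjusted p = 0.307 by edgeR with Benjamini-Hochberg adjustment). A shift towards the 5p arm of up to 2.83-fold is therefore within the interval, as is a small shift the other way, to 0.854-fold. A larger increase of the ratio was seen in 52 of the 200 hairpins, whose median change was 0.094, and 9.50% of them had a called change, 19 in number. This count was 12 without ΔTUT4/7 library 2, 11 without ΔTUT4/7 library 3 and 2 with a replicate block. So although miR-1306-3p passed the test and miR-1306-5p did not, a difference between the 2 arms in their response was not detected. Leaving out 1 library moved the value between 0.16, without ΔTUT4/7 library 3, and 1.03, without ΔTUT4/7 library 1, and in neither case did it pass after adjustment.

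The spread of miR-1306-5p among the ΔTUT4/7 libraries was unusual for its abundance. On the log2(CPM + 1) scale its SD within ΔTUT4/7 was 0.86, the highest of the 391 miRNAs with a mean above 10 CPM, whose median was 0.14. In WT its SD was 0.40 against a median of 0.23, which placed it at rank 76 of the same 391. Pooled over both strains the SD was 0.67, behind only miR-193a-3p, miR-636 and miR-17-5p, which had 1.01, 0.77 and 0.68, against a median of 0.22.

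The fitted SE shows the same spread. For miR-1306-5p it was 0.36 on the log2 scale, while the median was 0.20 for miRNAs above 10 CPM and 0.48 for the others. miR-1306-3p, from far fewer counts, had an SE of 0.26. Its SD was 0.011 within ΔTUT4/7 and 0.31 within WT, so in the same 3 ΔTUT4/7 libraries miR-1306-5p varied widely and miR-1306-3p hardly.

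**Figure D4:**
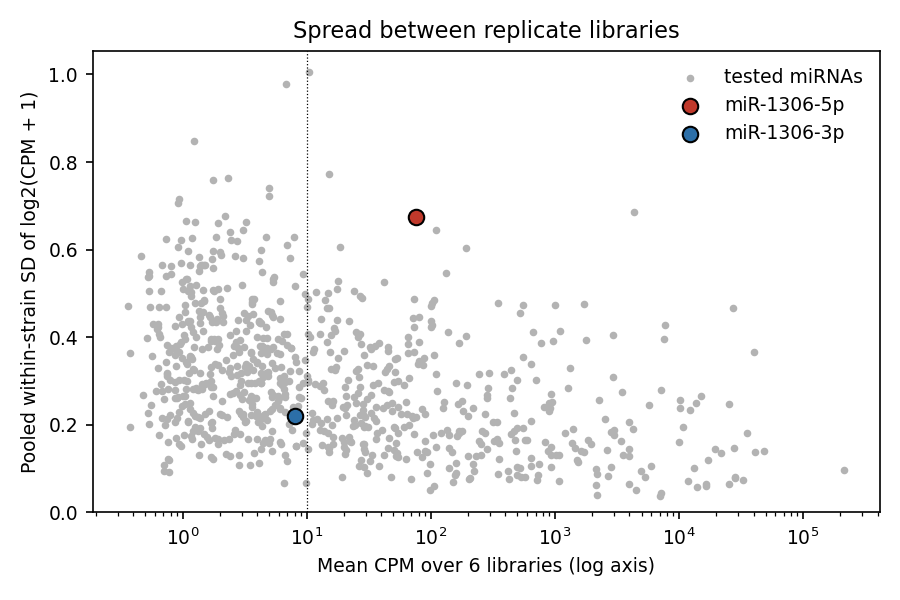
Pooled SD of log2(CPM + 1) within strains for the 826 tested miRNAs against their mean CPM over 6 libraries (log axis), with a dotted line at 10 CPM. miR-1306-5p (red), at 0.67, is the fourth highest of the 391 miRNAs to the right of that line, and miR-1306-3p (blue), at 0.22, lies within the main body of points.

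The 2 ΔTUT4/7 libraries that held the extremes of miR-1306-5p, 3 and 1, differed 3.36-fold in its level (exact 95% interval 2.84 to 3.97). This pair was chosen after the values were seen. The same ratio was 1.01 for miR-1306-3p (0.574 to 1.76), and the 2 intervals do not overlap. Across the 391 miRNAs above 10 CPM the median of this ratio was 1.02, and 18 of them reached 2-fold. miR-1306-5p had the highest. The 391 were kept on their mean over all 6 libraries, so some of them were scarce in ΔTUT4/7 cells. Among the 18 were miR-34b-3p (3.25), miR-34b-5p (3.25) and miR-196a-1-3p (2.16). Their log2 fold changes, ΔTUT4/7 over WT, were −6.20, −6.82 and −7.33, so these ratios rest on very low levels.

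The ratio between these libraries moved with GC content. Its median was 0.917 for the 72 miRNAs under 40% GC, 0.975 for the 110 from 40% to under 50%, 1.09 for the 120 from 50% to under 60% and 1.43 for the 55 at 60% or more. None of the 72 miRNAs of lowest GC content reached 2-fold, against 7 of the 55 of highest. Of the 18 miRNAs that did, 16 had a listed sequence, with a median of 59.1% GC against 47.8% over the 357 miRNAs with one. The 3 from 40% to under 50% GC that reached 2-fold were miR-34b-3p, miR-34b-5p and miR-196a-1-3p, all scarce in ΔTUT4/7 cells. The 55 miRNAs at 60% or more ranged from 0.747 to 3.36, with miR-1306-5p at the top, while miR-1306-3p, at 61.1% GC, did not share in the difference.

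When the trend of level against GC content was removed within each library, the SD of miR-1306-5p within ΔTUT4/7 went from 0.86 to 0.68, and its ratio of highest to lowest value, on CPM + 1, from 3.29 to 2.56. That of miR-1306-3p went the other way, from 1.02 to 1.25. After this step the log2 fold change was −0.34 for miR-1306-5p (adjusted p = 0.397, edgeR) and −1.06 for miR-1306-3p (adjusted p = 0.00539, edgeR), so the decrease of the 3p arm then passed the 2-fold limit. The part of GC content in the spread of miR-1306-5p was not tested beyond these values.

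**Figure D5:**
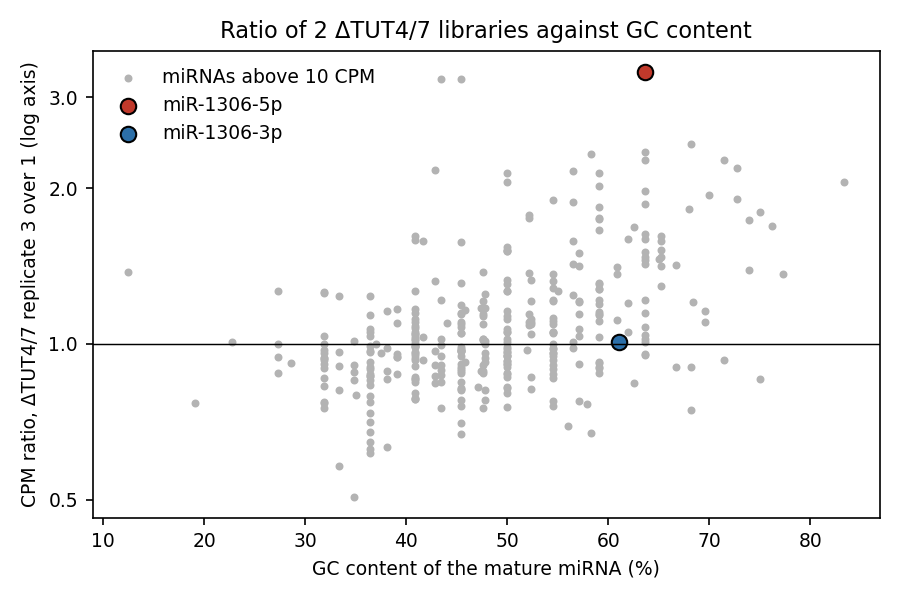
Ratio of CPM in ΔTUT4/7 library 3 to that in ΔTUT4/7 library 1 (log axis) against the GC content of the mature miRNA in percent, for miRNAs with a mean above 10 CPM and the 2 miR-1306 arms. miR-1306-5p (red) is the highest point at 3.36, and miR-1306-3p (blue) lies at 1.01 at nearly the same GC content.

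The miRNAs whose profile over the 6 libraries was most like that of each arm were sought among the 471 with a mean of at least 5 CPM, by the root mean square difference of their centred log2(CPM + 1) values. For miR-1306-5p these were miR-744-5p (0.27), miR-423-5p (0.31), miR-483-3p (0.31), miR-501-3p (0.32) and miR-615-3p (0.34). All 5 were higher in ΔTUT4/7 library 3 than in library 1, by 1.63-fold to 2.16-fold, which the choice by likeness over the same 6 libraries brings with it. The nearest, miR-744-5p, has the same GC content as miR-1306-5p, 63.6%, and its level was 668, 897 and 1320 CPM in ΔTUT4/7 and 1090, 1050 and 789 CPM in WT.

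The profiles nearest to miR-1306-3p were those of miR-30a-5p (0.048), miR-30c-2-3p (0.067), miR-450b-5p (0.070), miR-361-5p (0.078) and miR-10b-5p (0.079). Their log2 fold changes, ΔTUT4/7 over WT, ran from −0.87 to −0.68. They were chosen by their likeness to miR-1306-3p over the same 6 libraries, so this direction came with the choice. miR-30a-5p was at 3150, 3370 and 3390 CPM in ΔTUT4/7 and 6370, 5110 and 4440 CPM in WT. No miRNA was among the nearest 5 of both arms. The differences are not scaled to an arm's own spread, and the pooled SD was 0.67 for miR-1306-5p and 0.22 for miR-1306-3p. Their sizes can therefore not be compared between the arms.

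miR-3618, cut from the untranslated stretch of the same exon, was close to the limit of detection. It had 4, 3 and 5 counts in the ΔTUT4/7 libraries 1, 2 and 3, that is 0.788, 0.624 and 1.07 CPM. In the WT libraries it had 1, 3 and 19 counts, that is 0.227, 0.377 and 4.38 CPM. It passed the filter on low counts through WT library 3 alone. Its log2 fold change was −0.85 (SE 0.93, 95% confidence interval −2.89 to 1.19, adjusted p = 0.480 by edgeR with Benjamini-Hochberg adjustment), an interval too wide to set beside that of miR-1306-3p. The miR-1306 arms together had 80.6 CPM in ΔTUT4/7 cells, against 0.826 ± 0.224 CPM (SD, n = 3) for miR-3618.

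Within 2 Mb of mir-1306 on chromosome 22, 10 other miRNAs were listed, miR-3618 included, and all were tested. Only miR-301b-3p was called, 1 of 10 against 30.0% of all tested miRNAs, falling from 302.3 ± 123.3 CPM to 84.3 ± 9.22 CPM (SD, n = 3 each) with a log2 fold change of −1.84 (SE 0.25, adjusted p = 1.29e-04 by edgeR). Its cluster partners miR-130b-3p (−0.84, adjusted p = 9.11e-04) and miR-130b-5p (−0.41, adjusted p = 0.0487) fell by less than 2-fold by the same test. miR-1286 rose by less than 2-fold, with a log2 fold change of 0.88 (adjusted p = 0.0381, edgeR). The other 6 did not pass.

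The arms of the nearest abundant hairpin, mir-185, about 52.9 kb upstream, also differed in the ratio of ΔTUT4/7 library 3 to library 1. Unlike the miR-1306 arms, at 63.6% and 61.1% GC, they also differ clearly in GC content. miR-185-3p, with the same 63.6% GC as miR-1306-5p, was at 19.1, 27.0 and 43.3 CPM in the ΔTUT4/7 libraries 1, 2 and 3 and at 25.2, 23.0 and 23.5 CPM in WT. Its ratio between ΔTUT4/7 libraries 3 and 1 was 2.26, whereas miR-185-5p, of lower GC content, had 1.02. Neither differed between strains by the test, with log2 fold changes of 0.32 (95% confidence interval −0.27 to 0.91) and 0.08 (−0.19 to 0.35). miR-6816-5p (−0.95) and miR-4761-3p (−0.55) had 8 and 38 counts at most, and miR-301b-5p was at −0.09. Also rich in G and C, miR-6816-5p (81.0%) had a ratio of ΔTUT4/7 library 3 to library 1 of 1.62. That of miR-4761-3p (61.9%) was 0.866, the other way, and both ratios come from few counts.

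Group II precursors were represented by 62 listed arms, of which 58 were tested. Of these, 20 were higher, 9 were lower and 29 were not called, so 29 of 58 were called against 30.0% of all tested miRNAs (16.5% higher, 13.6% lower), and the median log2 fold change was 0.25 against 0.013. The list holds let-7 and miR-98 arms, and without them 6 of 43 were higher and 9 lower, with a median of −0.41. With library totals free of let-7 and miR-98, 22 of the 58 were higher and 5 lower, against 183 and 81 of all 826 tested miRNAs. The largest called increase of the list was that of let-7f-1-3p, by 5.62 on the log2 scale (adjusted p = 1.31e-07, edgeR), and the largest called decrease that of miR-143-3p, at −2.51 (adjusted p = 1.43e-04, edgeR). Ordered from the lowest change, miR-1306-3p was at rank 12 of 58 and miR-1306-5p at rank 25. Both arms thus belonged to the 29 that were not called.

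Hairpins that lie, like mir-1306, at least partly in an exon of a protein-coding gene gave 54 listed miRNAs, of which 47 were tested. Of these 10 were higher, 1 was lower and 36 were not called (23.4% called, against 30.0% of all tested miRNAs), with a median log2 fold change of 0.10 against 0.013 over all tested miRNAs. The number higher was 6 without ΔTUT4/7 library 2, ΔTUT4/7 library 3 or WT library 2, and 4 were lower without ΔTUT4/7 library 3. Over all tested miRNAs, 125, 111 and 113 were higher in these fits, in that order, and 104 were lower without ΔTUT4/7 library 3. With all 6 libraries, the largest called increase of this list was that of miR-4793-3p of CELSR3 (2.26, adjusted p = 0.0209, edgeR). Its only called decrease was that of miR-5187-5p of TOMM40L (−1.29, adjusted p = 0.0041, edgeR). miR-1306-3p was at rank 9 of 47 from the lowest change and miR-1306-5p at rank 22.

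Only 7 miRNAs, all tested, had a hairpin wholly within coding sequence. They are named for this reason, but the set was added after the values were seen. miR-4683 of FZD8 (1.50, adjusted p = 0.0327) and miR-671-5p of CHPF2 (1.05, adjusted p = 1.01e-04) were called higher by edgeR, so 28.6% of the 7 were called against 30.0% of all tested miRNAs. miR-935 of CACNG8 fell short of 2-fold at −0.85 (adjusted p = 0.00313, edgeR), a value close to the −0.83 of miR-1306-3p. miR-671-3p (0.49) and miR-7704 of HOXD1 (1.01) did not pass. The miR-1306 arms, at −0.83 and −0.05, lay below the median of these 7, which was 0.49.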

How the data were processed

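Small RNA libraries were made by the authors from 3 samples labelled as biological replicates of each strain with the QIAseq miRNA Library Kit. Per the study's methods and the submitters' processing notes, reads were trimmed to 18 nt, aligned to hg38 with Bowtie 1.0.0 and quantified on miRBase mature miRNAs in Partek 10.0.22. The deposited file holds the authors' estimated counts, which were already whole numbers. Its 3 values of 1000000 or more carry only 3 significant digits. The sources used here do not say whether molecular identifiers were collapsed. A deposited table of the authors' own comparison (p-values, FDR, ratio, fold change and strain means) was not used.

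Counts were scaled to CPM of the library total, and the whole table of miRNAs whose highest count exceeded 7 was tested in edgeR 4.0.16 (R 4.3.3, glmQLFit and glmQLFTest, normalization factors of 1) with Benjamini-Hochberg adjustment. Arm ratios were tested by the arm by strain term with the library as a block. On simulated data for the strain comparison, with 777 miRNAs tested, edgeR recovered 180 of 188 miRNAs changed 4-fold with 2 false calls. For the arm ratio it recovered 40 of 46 hairpins changed 4-fold, with 1 false call. All simulated miRNAs had the same dispersion. The recovery of smaller changes, or of miRNAs as variable as miR-1306-5p, was thus not measured. DESeq2 1.42.0, limma 3.58.1, TMM and RLE factors, totals without let-7 and miR-98, other filters, a GC trend, a replicate block and leaving out each library were alternatives. Sequences are from RefSeq (897 of the 1000 miRNAs matched) and gene models from GENCODE. No pairing of the libraries by replicate number was seen in the values, and the main fits used none. The p-values measure the spread between these samples, since separate cultures are not described. The members and lists were chosen with earlier results of these data known. Named miRNAs are both arms, miR-3618, miRNAs within 2 Mb, the 5 nearest profiles of each arm, and the called extremes of each list. miR-193a-3p, miR-636, miR-17-5p and the wholly coding set were added after the values were seen.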

Additional observations from a re-analysis of the deposited data

How the results depend on the processing

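Over 15 alternatives miR-1306-5p stayed between −0.63 and 0.28 on the log2 scale with adjusted p from 0.106 to 0.944. Its sign turned with totals free of let-7 and miR-98 (0.18) and without ΔTUT4/7 replicate 1 (0.28), ΔTUT4/7 replicate 2 (0.07) or WT replicate 2 (0.20), and leaving out 1 library gave −0.63 to 0.28. Over the same 15, miR-1306-3p was lower in each (−1.06 to −0.61). Its adjusted p rose above 0.05 with the totals free of let-7 and miR-98 (−0.61, adjusted p = 0.0717). It was also above 0.05 without ΔTUT4/7 replicate 1, ΔTUT4/7 replicate 2 or WT replicate 1 (0.0558, 0.0653 and 0.0827). The log2 fold change of miR-1306-3p ranged from −0.96 to −0.65 when 1 library was left out. The summed arms turned sign with the reduced totals (0.10) and in 2 of the fits that left out a library, which ranged from −0.66 to 0.18. The miR-1306 arm ratio missed the threshold in all 10 alternatives (0.16 to 1.03). The number of hairpins with a called ratio was 19, and 11 to 23 when 1 library was left out (12 without ΔTUT4/7 replicate 2, 11 without ΔTUT4/7 replicate 3). The 5p share differed by 1.20 to 5.65 percentage points when 1 library was left out. Of group II, 9 were called lower and 5 with the reduced totals. When 1 library was left out, 8 to 9 were lower and 18 to 21 higher, and the exonic list had 6 to 10 higher and 1 to 4 lower. The counts of all called miRNAs were 108 to 183 higher and 81 to 120 lower.

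Deviations of same-numbered libraries correlated at −0.13, −0.10 and −0.17, and 0 of 6 libraries correlated best with their own number. No pairing by number was thus seen in the values, which cannot tell whether same-numbered samples were prepared together. With the replicate block, miR-1306-5p was at −0.19 (adjusted p = 0.647), miR-1306-3p at −0.82 (adjusted p = 0.0363), the sum at −0.24 and the arm ratio at 0.61, and 2 hairpins had a called ratio in place of 19. miR-3618 was not tested with filterByExpr or without WT replicate 3, where it failed the filter. The adjusted p are by edgeR, DESeq2 or limma with Benjamini-Hochberg adjustment. The causes of these shifts were not tested. Depth limits miR-1306-3p, with 27 to 79 counts a library, and miR-3618, with 1 to 19.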
